A study of Triticum aestivum with 8 samples.

Results

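The array carried 37826 probes for wheat transcripts, and 205 of them (0.542%) were bright in crown, at a mean level of at least -1 in both crown groups, and well above background on every crown array and on no leaf array. These 205 probes were chosen on the measured values of all 8 arrays. Each had to be marked well above background by the scanner software on all 4 crown arrays and unmarked on all 4 leaf arrays, with a mean of at least -1 in each of the crown groups. Levels throughout are log2 of the scanner's processed signal minus the array's 75th percentile over all probes, so that 0 is the 75th percentile and -1 is 2-fold below it. Crown against leaf is therefore the comparison that made the list, and its values are given below as a description, without a test. The response to cold within crown was not part of the choice, other than through the floor of -1 on both means.

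All samples came from a synthetic hexaploid wheat line, made anew from crosses between relatives of the parents of bread wheat. The crown groups were crown at 4 °C, from plants kept for 3 weeks at 24 °C and then for 6 weeks at 4 °C, and crown at 24 °C, from plants kept for 3 weeks at 24 °C. The leaf groups were first leaves at 4 °C, after 3 weeks at 24 °C and 12 weeks at 4 °C, and first leaves at 24 °C, after 3 weeks at 24 °C. Each group had 2 arrays, which the study calls independent experiments, so n = 2 for every mean and SD below and p-values measure only the spread between such arrays. Cold and age cannot be told apart, since the cold plants were also older by the weeks at 4 °C, and the cold leaf and crown samples differ in those weeks as well.

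The crown is the short base of the shoot, near the soil surface, that holds the shoot apical meristem, the bases of the leaves, the buds from which tillers grow and the origin of the crown roots. A winter cereal regrows from it after frost, and the meristem within it is where flowers form after vernalization, the long cold that winter wheat needs before it flowers. The first leaf is a differentiated photosynthetic organ with no shoot meristem. A transcript seen in crown and not in leaf may thus come from any of several cell types, and in bulk samples such as these fewer cells of a type and less RNA per cell cannot be told apart.

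The labels disagree on crown at 24 °C: titles, source names and tissue entries give crown, or shoots with the apical meristem, whereas the free-text descriptions speak of leaves. Over all probes, Pearson's r between the crown arrays at 24 °C and those at 4 °C was 0.915 to 0.919, whereas it was 0.774 to 0.776 with the leaf arrays at 24 °C. Between 72.1% and 85.6% of probes were well above background on the 8 arrays. The lowest signal so marked lay at -8.47 and -8.38 in crown at 4 °C, against -6.09 and -6.08 in crown at 24 °C, and at -7.89 and -8.19 in leaf at 4 °C, against -6.35 and -6.04 in leaf at 24 °C. No 2 groups shared a scan day, and crown at 4 °C and crown at 24 °C lay on separate slides. The version of the scanner software, which sets the detection marks, also differed between 4 °C and 24 °C in crown and in leaf. Both leaf arrays at 24 °C were read on a different scanner from all other arrays. Slide and scan day thus cannot be told apart from group. Nor can software version be told apart from temperature within a tissue, or scanner from temperature in leaf.

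The members carry names of contigs, clones or sequence entries, which the files used here do not pair with genes, and they stand for 205 different contig or clone names. No probe named by a gene symbol, and none named for a marker gene of crown or leaf, was among them. The members thus offer no marker gene against which to check the crown label, and marker probes elsewhere on the array are not reported here. By name, 119 members (58.0%) belonged to the wheat0130Contig series, which supplied 55.1% of the 11259 probes that met the same crown floor. A further 26 came from the MUGEST2003_23lib_Contig series, 24 were MUG clones and 20 were clones with the prefix rwh. These series made up 12.7%, 11.7% and 9.76% of the members, against 13.6%, 7.31% and 10.2% of the probes meeting the crown floor. The remainder comprised 9 whfl_allContig probes, 3 clones with the prefix wh, 2 whsh_allContig probes, 1 probe named by a sequence number and 1 with another name. The wh clones and the whsh_allContig probes were thin among the members. They supplied 3 of 475 (0.632%) and 2 of 437 (0.458%) at the crown floor, against 1.82% of all probes at that floor.

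Restricting the list to bright probes removed most of the candidates. At any level, 1020 probes were well above background on all 4 crown arrays and on none of the leaf arrays, and 815 of these missed the floor of -1. Of the 815, 139 missed it in only a single crown group: 103 reached it at 4 °C but not at 24 °C and 36 at 24 °C but not at 4 °C. The same rule turned round, asking for leaf signal and none in crown, found 25 probes. Well above background were 85.6% and 84.9% of probes in crown at 4 °C, and 75.1% and 75.3% in crown at 24 °C. In leaf the shares were 77.3% and 79.3% at 4 °C, and 73.1% and 72.1% at 24 °C. The 205 and the 25 thus do not rest on equally strict conditions, and their difference was not tested. Of the 11259 probes that met the crown floor, 10753 were well above background on all 4 leaf arrays too, 59 on 3, 186 on 2, 56 on 1 and 205, the members, on none. Most of the 186 split by leaf group, with 157 marked on both leaf arrays at 4 °C alone and 25 on both leaf arrays at 24 °C alone. The lowest signal so marked was -7.89 and -8.19 in leaf at 4 °C, against -6.35 and -6.04 in leaf at 24 °C. A dim probe of equal level could thus be marked at 4 °C alone, and the split was not tested.

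Members just inside and just outside the floor differed little in level. The lower of the crown means was -0.98 for whkv7m19_687, -0.95 for MUGEST2003_23lib_Contig17485_559 and -0.93 for MUGEST2003_23lib_Contig21654_1456, the nearest inside. Outside lay MUG007B06R990628 at -1.03, MUGEST2003_23lib_Contig6102_143 at -1.08 and wheat0130Contig6407 at -1.10. The floor thus falls within a continuous range of levels.

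In crown the members covered a wide range of brightness. At 4 °C they spanned -0.96 to 6.03 with a median of 1.90 on replicate 1, and -0.96 to 5.95 with a median of 1.93 on replicate 2. At 24 °C the range was -0.999 to 5.57 with a median of 1.18 on replicate 1, and -0.96 to 5.56 with a median of 1.16 on replicate 2. The medians of all probes lay between -2.64 and -2.52 on these arrays, so the members as a group sat among the brighter spots, as the floor requires. The middle 50% of the members' group means lay between 0.61 and 3.35 at 4 °C, against -0.05 and 2.49 at 24 °C. A level of 3 or more was reached by 59 members at 4 °C, against 41 at 24 °C, and 11 were at 4 or more in both groups. Brightness also depends on the probe itself, so these levels do not rank the transcripts by amount.

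Replicate arrays gave nearly the same value for most members. The median absolute difference between the 2 arrays was 0.058 at 4 °C, against 0.057 at 24 °C, beside 0.048 and 0.050 in the same groups for the probes at the same crown floor detected on all 8 arrays. Differences over 0.3 occurred for 4 members at 4 °C, against 3 at 24 °C. The widest was 0.577, for wheat0130Contig8327 at 4 °C, and at 24 °C it was 0.539, for whfl_allContig1916.

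On the leaf arrays the members' median signals lay a little above those of the negative control spots. Their median was -9.68 and -9.98 on the 2 arrays at 4 °C, where the negative controls had medians of -9.98 and -10.35. At 24 °C it was -8.24 and -7.96, beside negative control medians of -8.34 and -8.07. The 95th percentile of the negative controls was exceeded by 56 and 87 members on the arrays at 4 °C, and by 52 and 47 at 24 °C, that is by 22.9% to 42.4% of them. The members' highest leaf signals were -7.42 and -7.78 at 4 °C, and -5.91 and -5.68 at 24 °C. On each leaf array between 64 and 89 members had a background-subtracted signal below 0.

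Not every member was without leaf signal by a weaker criterion. The scanner software also marks spots as positive and significant, a lower bar than well above background, and 132 of the 205 members met it on at least 1 leaf array. By number of leaf arrays, 73 members met it on none, 40 on 1, 41 on 2, 26 on 3 and 25 on all 4. It was met on both leaf arrays at 4 °C by 62 members and on both at 24 °C by 42. The words "not detected" therefore mean not well above background, and 73 members lacked leaf signal by both marks.

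As no member was well above background in leaf, crown over leaf was computed as a nominal lower bound. It set the mean in crown against the mean of a limit over the leaf arrays. The limit was the array's lowest signal well above background or the probe's own signal, whichever was higher. That lowest signal is not a strict ceiling. On replicate 2 of leaf at 24 °C it was -6.04, and the highest member read -5.68. At 4 °C these bounds ran from at least 134-fold for rwhca4b03_277 to at least 16744-fold for MUG001E05R990520, with a median of 987-fold. At 24 °C they ran from at least 37.1-fold for whkv7m19_687 to at least 3459-fold for MUG001E05R990520, with a median of 163-fold. Bounds of 1000-fold or more were reached by 101 members at 4 °C, against 15 at 24 °C. The lowest signal well above background was lower on the arrays at 4 °C. Both groups at 4 °C also shared a version of the scanner software that neither group at 24 °C had. With a common limit of -6.04 on all arrays the medians were 246-fold at 4 °C, against 146-fold at 24 °C. The bounds then ran from 33.9-fold to 4180-fold at 4 °C, and from 33.4-fold to 3109-fold at 24 °C.

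Under the 75th percentile scaling none of the 6 brightest members was called in crown at 4 °C against crown at 24 °C. MUG001E05R990520 read 6.03 and 5.95 at 4 °C, against 5.57 and 5.56 at 24 °C. On the leaf arrays it read -10.20 and -9.13 at 4 °C, and -7.90 and -8.27 at 24 °C. Its crown groups did not overlap, and its change of 0.43 (SE 0.34) did not pass the test (limma, Benjamini-Hochberg adjusted p = 0.298), although with the crown arrays alone the adjusted p was 0.00359. On the crown arrays wheat0130Contig16067 read 5.40 and 5.26 at 4 °C, against 5.40 and 5.47 at 24 °C. The arrays of wheat0130Contig7727 gave 5.55 and 5.70 at 4 °C, against 4.88 and 4.85 at 24 °C. These were not called either: the changes were -0.10 and 0.76, with limma Benjamini-Hochberg adjusted p = 0.668 and 0.0602.

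The other probes of the 6 brightest were closer between the groups than wheat0130Contig7727. Values of 5.20 and 4.70 at 4 °C, against 5.05 and 4.95 at 24 °C, were read for wheat0130Contig2753, whose cold arrays differed most among these 6. For wheat0130Contig14418 they were 4.96 and 4.75 at 4 °C, against 4.79 and 4.74 at 24 °C. MUG003E11R990623 read 4.60 and 4.52 at 4 °C, against 4.84 and 4.85 at 24 °C. Changes of -0.05, 0.09 and -0.29 on the log2 scale left all of them uncalled, with limma Benjamini-Hochberg adjusted p = 0.849, 0.617 and 0.136. With the crown arrays alone the adjusted p was 0.00161 for wheat0130Contig7727 and 0.0106 for MUG003E11R990623, with changes still short of 2-fold. With each array scaled to its E1A spike-in controls, MUG001E05R990520, wheat0130Contig7727 and wheat0130Contig14418 were called higher, with log2 changes of 1.42, 1.76 and 1.08. At 24 °C the lower bounds of crown over leaf for the 6 lay between 1994-fold, for wheat0130Contig14418, and 3459-fold.

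The only member named by a sequence number, ncbi_gi_6942301_1394, read 2.45 and 2.49 in crown at 4 °C, against 3.34 and 3.36 in crown at 24 °C. The groups did not overlap. Its change of -0.88 (SE 0.14) passed the adjusted p (limma, Benjamini-Hochberg adjusted p = 0.00196) but was 1.84-fold and so fell short of the 2-fold that a call required. The adjusted p was 0.183 with quantile normalization and 0.0983 with normexp and the 75th percentile (limma, Benjamini-Hochberg), and with the spike-in scaling the change was 0.12 (limma, Benjamini-Hochberg adjusted p = 0.577).

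Within crown, members were higher at 4 °C more often than lower. Of the 205, 86 (42.0%) were called higher and 18 (8.78%) lower in crown at 4 °C than in crown at 24 °C, at a limma Benjamini-Hochberg adjusted p under 0.05 over all 32204 probes tested and a change of at least 2-fold. Over all probes tested, 20.4% were called higher and 15.9% lower, 36.3% in all, against 50.7% of the members. The median change was 0.81 on the log2 scale over the members and 0.17 over all probes tested. Scaled to the E1A spike-in controls, 145 members were called higher and 2 lower, and that scaling moved the median of all probes tested to 1.16. The floor of -1 on both means bears on these counts: the 53 members with a mean under 0 at 24 °C could not have fallen 2-fold and still met it, and the 30 with a mean under 0 at 4 °C could not have risen 2-fold.

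Probes under the same floor give a closer background. Of the 10753 that met it and were detected on every array, 11.0% were called higher and 11.4% lower, 22.4% in all, with a median change of 0.08. Among members the 10th, 25th, 75th and 90th percentiles of the change were -0.87, -0.10, 1.49 and 1.98, beside -1.11, -0.43, 0.57 and 1.05 for those probes. Changes of 2-fold to 4-fold upward were measured for 34.1% of members and 9.90% of those probes, and changes of 4-fold or more upward for 9.27% and 1.17%. Downward, 8.78% of members and 7.90% of those probes changed 2-fold to 4-fold, and 0.976% and 3.52% at least 4-fold. The shift was thus on the upper side, and large falls were a smaller share of the members. These shares are descriptions, and no test of the list as a whole was made.

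The members' median change was above that of other probes at each starting level. Among members with a mean of -1 to 0 at 24 °C, 24 of 53 (45.3%) were called higher and none lower, with a median change of 0.92. Of the 2378 probes at that level detected on all 8 arrays 18.7% were called higher and none lower, with a median of 0.36. Between 0 and 2 at 24 °C, 39 of 86 members (45.3%) were called higher and 9 lower, with a median of 0.95, beside 9.61% higher, 10.4% lower and a median of 0.02 for the probes detected on all 8 arrays. From 2 upward, 23 of 66 (34.8%) were called higher and 9 (13.6%) lower, with a median of 0.62, beside 7.80% higher, 20.2% lower and a median of -0.09.

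Probes missing from only some leaf arrays were also more often called higher in cold crown than lower. At the same crown floor, the median change in crown was 0.90 for the 56 probes well above background on 1 leaf array, 0.58 for the 186 on 2 and 0.77 for the 59 on 3. Of these, 33.9%, 35.5% and 35.6% were called higher, against 42.0% of the members and 11.0% of the probes detected on all leaf arrays. For the 157 probes detected in leaf at 4 °C alone the median change in crown was 0.60, and for the 25 detected in leaf at 24 °C alone it was 0.52. Among the members, the 73 with no leaf signal by the weaker mark had a median change of 1.098, with 38 called higher and 8 lower, and the other 132 had a median of 0.71, with 48 called higher and 10 lower. The differences between these shares were not tested.

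Most changes exceeded the spread between arrays, but so did those of other probes. The crown arrays at 4 °C and 24 °C did not overlap for 193 members (94.1%), 141 of them higher and 52 lower at 4 °C, against 91.2% of all probes tested. Among the 101 members not called, 31 had a limma Benjamini-Hochberg adjusted p under 0.05 with a change short of 2-fold. The other 70 had a larger adjusted p, and 58 of the 101 changed by less than 0.5. As a call required 2-fold, the following medians are a description: 2.46 at 4 °C, against 0.78 at 24 °C, for the 86 called higher, and 0.37 at 4 °C, against 1.95 at 24 °C, for the 18 called lower.

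The fit over all 8 arrays counts the spread of the leaf arrays too, where the members lie near background. The median standard error of the members' change was 0.183 with all 8 arrays and 0.0567 with the 4 crown arrays alone, and 0.0662 with all 8 arrays for the probes detected on every array. With the crown arrays alone 89 members were called higher and 20 lower.

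The largest rise was that of wheat0130Contig12595, which read 3.56 and 3.48 in crown at 4 °C, against -0.001 and -0.06 in crown at 24 °C. Its leaf signals were -9.57 and -8.85 at 4 °C, and -8.56 and -8.31 at 24 °C. The crown groups lay far apart, with an 11.7-fold rise, a log2 change of 3.55 (SE 0.24, limma, Benjamini-Hochberg adjusted p = 4.69e-05). No other member rose by more than 5.35-fold, the rise of wheat0130Contig12102, which read 2.07 and 2.14 at 4 °C, against -0.24 and -0.39 at 24 °C, with a log2 change of 2.42 (SE 0.16, limma, Benjamini-Hochberg adjusted p = 4.75e-05).

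Next came a clone and a contig of other series. MUG008E04R990628 read 1.46 and 1.53 at 4 °C, against -0.88 and -0.87 at 24 °C, close to the floor. This was a log2 change of 2.37 (SE 0.13, limma, Benjamini-Hochberg adjusted p = 2.17e-05). On the cold crown arrays whfl_allContig186 gave 2.68 and 2.81, against 0.48 and 0.34 at 24 °C, a log2 change of 2.34 (SE 0.31, limma, Benjamini-Hochberg adjusted p = 0.000856). The crown groups of both were far apart, and the leaf arrays of whfl_allContig186 at 4 °C, which enter its SE, read -10.13 and -9.18.

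The rest of the 8 largest rises, of between 4.70-fold and 5.03-fold, came from the wheat0130Contig and whfl_allContig series. The levels of wheat0130Contig15311 were 2.21 and 2.16 at 4 °C, against -0.13 and -0.16 at 24 °C, and those of wheat0130Contig4406 were 1.56 and 1.69, against -0.58 and -0.71. For whfl_allContig1546 they were 3.01 and 3.02 at 4 °C, against 0.74 and 0.80 at 24 °C, and for wheat0130Contig10991 2.46 and 2.55, against 0.36 and 0.18. None of these groups overlapped, and the log2 changes were 2.33, 2.27, 2.25 and 2.23, with limma Benjamini-Hochberg adjusted p = 1.24e-05, 2.8e-05, 0.00147 and 0.000133. All 8 probes with the largest rises lay at least 1.46 log2 units above the 75th percentile on each array at 4 °C, against -0.88 to 0.80 at 24 °C.

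Falls were fewer, and under the 75th percentile scaling the largest exceeded every rise. The levels of wheat0130Contig1256 were -0.55 and -0.60 in crown at 4 °C, against 3.82 and 3.70 in crown at 24 °C. It fell 20.2-fold, a log2 change of -4.34 (SE 0.16, limma, Benjamini-Hochberg adjusted p = 4.99e-06). MUGEST2003_23lib_Contig557_271 read 0.31 and 0.30 at 4 °C, against 3.65 and 3.53 at 24 °C, and fell 9.76-fold, a log2 change of -3.29 (SE 0.19, limma, Benjamini-Hochberg adjusted p = 2.63e-05). With the spike-in scaling wheat0130Contig1256 changed by -3.34 and wheat0130Contig12595 by 4.545, so that there the largest rise was the greater. Under the 75th percentile the 2 named here were the only members that changed by 4-fold or more downward, against 19 upward. Neither was a weak spot at 24 °C, where both lay more than 3.5 log2 units above the 75th percentile on each array.

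The next 6 falls were smaller, between 2.69-fold and 3.90-fold. Levels of -0.82 and -0.86 at 4 °C, against 1.09 and 1.16 at 24 °C, were read for MUGEST2003_23lib_Contig5318_408. For MUGEST2003_23lib_Contig1950_205 they were -0.94 and -0.82 at 4 °C, against 0.86 and 0.76 at 24 °C, and for MUGEST2003_23lib_Contig25918_673 1.48 and 1.59, against 3.17 and 3.01. Each of these 3 contigs had separate groups, and their log2 changes were -1.96, -1.69 and -1.55, with limma Benjamini-Hochberg adjusted p = 0.00104, 0.000115 and 0.000319. The clones rwhr20n23 and rwhr5f05 read 0.34 and 0.39, and 0.44 and 0.50, at 4 °C, against 1.96 and 2.04, and 1.92 and 1.88, at 24 °C. For wheat0130Contig4858 the levels were 0.29 and 0.24 at 4 °C, against 1.77 and 1.78 at 24 °C. Here the log2 changes were -1.64, -1.43 and -1.51, with limma Benjamini-Hochberg adjusted p = 0.00444, 0.000662 and 0.000649. All 6 of these calls were lost, with the direction kept, when the arrays were scaled to their spike-in controls.

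Other members kept almost the same level under the 75th percentile scaling. The log2 change was nearest to 0 for wheat0130Contig10464, which read 0.63 and 0.60 at 4 °C, against 0.64 and 0.59 at 24 °C. Clone rwhdl1f04 read -0.63 and -0.59 at 4 °C, against -0.58 and -0.65 at 24 °C, and wheat0130Contig46 read -0.67 and -0.69, against -0.67 and -0.67. In all 3 the crown groups overlapped, and the limma Benjamini-Hochberg adjusted p was 0.995, 0.979 and 0.990. For wheat0130Contig46 the leaf arrays at 4 °C were far apart, at -7.70 and -9.74, beside -6.30 and -5.68 at 24 °C, and its SE of 0.638 includes that spread. With the spike-in scaling the 3 changes were 0.995, 1.004 and 0.987, and rwhdl1f04 was called higher (limma, Benjamini-Hochberg adjusted p = 0.00214).

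The counts are given by name series, each beside the probes of that series detected on all 8 arrays at the same floor. Among the 119 wheat0130Contig members 56 (47.1%) were called higher and 9 (7.56%) lower, with a median change of 0.97, beside 684 of 5892 (11.6%) higher, 621 lower and a median of 0.10. MUG clones had 13 of 24 (54.2%) called higher and none lower, with a median of 1.13, beside 16.8% higher, 5.70% lower and a median of 0.29. All 9 whfl_allContig members changed upward, 8 of them called, with a median of 1.35, beside 14.9% called higher, 8.57% lower and a median of 0.17. The other large series had medians near 0: of 26 MUGEST2003_23lib_Contig members 3 (11.5%) were called higher and 5 (19.2%) lower, with a median of -0.001, beside 6.16% higher, 13.1% lower and a median of -0.03. Of 20 rwh clones 2 were called higher and 3 lower, with a median of -0.05, beside 5.02% higher, 12.8% lower and a median of -0.04. The 3 wh clones were all called higher, with a median of 1.49, beside 8.74% higher, 21.1% lower and a median of -0.16. What the prefixes stand for is not given in the sources used here, and the difference between the series was not tested.

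Among the rwh members, 10 have a counterpart on the array whose name lacks the leading r, such as rwhoh15f01 and whoh15f01. The files used here do not say how such probes are related, so the pairing is by name alone. Of the 10 counterparts 9 were well above background on all 4 crown arrays, and 6 of these 9 were on none of the leaf arrays, so that they missed the list through the floor of -1 alone. The change in crown had the same sign in member and counterpart in 5 of the 9 pairs.

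The counterpart of rwhoh15f01, whoh15f01, read -3.11 and -2.89 in crown at 4 °C, against -3.50 and -3.38 in crown at 24 °C. Its member read 1.85 and 1.89 at 4 °C, against 1.96 and 2.01 at 24 °C. Neither probe was called. For rwhr5f05, called lower with a log2 change of -1.43, the counterpart whr5f05 read -1.90 and -1.89 at 4 °C, against -1.30 and -1.37 at 24 °C, a change of -0.56 (SE 0.13, limma, Benjamini-Hochberg adjusted p = 0.00996) that fell short of 2-fold. The reverse held for rwh23m08, not called at 1.47 and 1.34 at 4 °C, against 0.95 and 0.84 at 24 °C. Its counterpart wh23m08 read -0.28 and -0.18, against -1.63 and -1.69, a called rise of 1.43 (SE 0.45, limma, Benjamini-Hochberg adjusted p = 0.0309). Unlike its member, wh23m08 was well above background on 2 leaf arrays.

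Detection differed within further pairs too. Clone rwhyf23n03 read 1.86 and 1.94 at 4 °C, against 1.37 and 1.35 at 24 °C, while whyf23n03 lay at -5.76 and -6.11, against -5.68 and -4.74, and was marked on 1 leaf array. MUGEST2003_23lib_Contig25938_p_703 read 1.68 and 1.54 at 4 °C, against 2.08 and 2.06 at 24 °C, and MUGEST2003_23lib_Contig25938_m_293, which shares its contig name, was not well above background on any of the 8 arrays. A probe name shared with a member therefore did not carry the member's signal in every case.

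The position of the members was described only by the median row and the median column, and smaller clusters were not looked for. The upper part of the array, up to the median row, held 52.2% of them and 50.1% of all probes, and the part up to the median column 44.9% and 50.5%. No member spot carried an outlier mark on any array, and no probe was saturated.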

How the data were processed

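Cy3-labelled RNA was hybridised to 8 one-colour Agilent arrays, per the labels. The deposited scanner files hold intensity values made with Feature Extraction, in version 9.5 per the submitters' processing notes and in versions 9.5.3.1 (leaf at 24 °C), 10.5.1.1 (both groups at 4 °C) and 10.7.3.1 (crown at 24 °C) per the file headers, which record the processed signal as background-corrected; flags and spot classes are of kind other per the file headers. The authors' deposited normalized intensity table, whose scaling is not given in the sources used here, served as an alternative.

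Processed signals of the 37826 non-control probes were taken to log2 and reduced by each array's 75th percentile. A group-means model over the 8 arrays was fitted with limma 3.58.1 (R 4.3.3; 4 residual and 1.58 prior degrees of freedom) to the 32204 probes that both arrays of crown at 4 °C, or both of crown at 24 °C, marked as well above background, with Benjamini-Hochberg adjustment over them; a call needed an adjusted p under 0.05 and a 2-fold change. No exact permutation test was used, as with 2 arrays against 2 its two-sided p cannot go below 0.333. In simulated data over these 32204 probes, 100 were changed by each fold in crown at 4 °C and the rest left unchanged. There the fit called 75% of the 2.5-fold and 86% of the 4-fold changes against crown at 24 °C. In the measured data 36.3% of the probes were called, so the setting differs and these shares may not hold there. Genes named were the member with a sequence number as name, the 6 brightest, the 8 largest called rises and 8 largest called falls, the 3 smallest changes, the 3 nearest each side of the floor and the 5 brightest with another probe of the same clone or contig.

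The members and lists were chosen with earlier results of these data known, and the ranges of level and the split by the weaker mark after these values were seen. Arrays are few, which limits precision. No sequence is shown, since the probe sequences were not used here. Alternatives were other scalings, background corrections, filters, models and arrays left out.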

Additional observations from a re-analysis of the deposited data

How the results depend on the processing

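The number of members depended on the detection mark and the centring. With the weaker positive-and-significant mark in place of well above background 73 probes met the rule, and with each array centred on its median, which lies lower and so loosens the floor of -1, 469 did. Leaving out 1 array at a time gave 205 to 242, the highest without replicate 2 of leaf at 4 °C. Scaling to the E1A spike-in controls gave 145 members called higher and 2 called lower, with a median change of 1.81. That scaling moved the median of all probes tested to 1.16, against 0.17 under the 75th percentile. Normexp with the 75th percentile put the median of all probes tested at -0.16. The members' median minus that of the probes at the same floor detected on all 8 arrays was 0.735 under the 75th percentile. A single factor per array cannot change it. Quantile normalization gave 0.679 and, after normexp, 0.645, and it was 0.708 to 0.762 without each array in turn. Centring on the median gave a median change of 0.718 and normexp with quantile normalization 0.744. Without each array in turn, 79 to 88 members were called higher and 16 to 20 lower, with a median of 0.781 to 0.845.

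Replicate numbers gave no sign of pairing: the replicate differences of the 2 crown groups correlated at -0.0609 over 27570 probes. Such a correlation cannot show whether the samples were paired. With replicate number as a block 87 members were called higher and 18 lower. Slide as a random block gave 89 and 20, but the crown groups lie on a slide each, so it does not separate slide from group. Of 693 values of the named probes under alternatives, 681 kept their side of the call, and 6 gained and 6 lost it, all with the spike-in scaling. That count does not include calls without a fold threshold. There ncbi_gi_6942301_1394 and rwhyf23n03 would pass too, with limma Benjamini-Hochberg adjusted p = 0.00196 and 0.0443. Depth of signal limits the leaf side: no member was well above background there, so crown over leaf was given as bounds. By the weaker mark 132 members had signal on at least 1 leaf array. The cause of these differences was not tested.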
